A study of Mus musculus with 73 samples.

Results

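The G9a-Glp epiblast set held 13 of the 72 RNA-seq libraries in the deposited table. It was taken by library title, as the 6 epiblast libraries of the G9a-Glp double knockout and the 7 epiblast libraries of wild type embryos of the same cross. Each library came from the epiblast of 1 mouse embryo at embryonic day 6.5. The study disrupted the regulators Dnmt1, Rnf2, Eed and the pair G9a and Glp in zygotes of a hybrid cross and asked how parental imprints are kept in the epiblast and in the extraembryonic ectoderm (ExE).

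All 13 embryos had a superovulated BDF1 mother and a CAST father, whose sperm was injected into the oocyte. The G9a-Glp zygotes then received Cas9 mRNA with several guides per gene against exons of Ehmt2, which encodes G9a, and Ehmt1, which encodes Glp. The wild type zygotes went without this second injection, and no embryo injected with a control guide is among the groups used here, so the injection and the knockout cannot be told apart against the wild type. The Dnmt1 (n = 3), Rnf2 (n = 6) and Eed (n = 9) epiblasts had parents of the same strains and were made by the same zygotic injection. The alleles made in each embryo and the share of cells that carried them were not given, so a knockout embryo may hold cells with a working copy. The epiblast was cut from the ExE, visceral endoderm was stripped off with enzymes, and full-length cDNA was amplified from each small tissue piece. Only reads over positions that differ between BDF1 and CAST were counted, and the level of a gene is given as counts scaled to library size (CPM). Levels depend on how many such positions a gene holds and are compared between libraries, not between genes.

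G9a and Glp form a heterodimer that places mono- and dimethylation on lysine 9 of histone H3 (H3K9me2), a mark of silent chromatin, and mouse embryos without either enzyme die at mid-gestation. The pair keeps germline genes and some retroviral sequences silent. Noncanonical imprints, such as those at Slc38a4, Gab1, Sfmbt2, Smoc1 and the Jade1 locus, rest on histone marks inherited from the oocyte, and in extraembryonic tissue these genes are read mainly from the paternal copy.

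The guides' targets were read first. Ehmt1 (chr2:24790769-24919643, mm10) stood at 4.14, 18 and 50.5 CPM (lowest, median and highest) in the G9a-Glp epiblasts and at 14.5, 27.5 and 39.8 CPM in the wild type. The groups overlapped, and knockout embryos 2 and 7 stood at 29.3 and 50.5 CPM. By edgeR's quasi-likelihood test with Benjamini-Hochberg adjustment, the log2 fold was -0.62 ± 0.41 (SE), with an adjusted p of 0.259, and it was -1.09 (adjusted p = 0.0428), now past the threshold, without knockout embryo 7. Ehmt1 was lower than in the Eed epiblasts by a log2 fold of -1.05 (adjusted p = 0.0189), while the differences from Dnmt1, -1.19 (adjusted p = 0.0890), and from Rnf2, -0.59 (adjusted p = 0.208), did not pass the threshold. Ehmt2 (chr17:34898466-34914051) had too few reads for a test against the wild type, at 3.07 ± 1.43 CPM (SD, n = 6) against 3.07 ± 2.27 (n = 7). It was lower than in each other knockout, with log2 folds of -2.17 (adjusted p = 0.0158) over Dnmt1, -1.70 (adjusted p = 0.00515) over Rnf2 and -2.05 (adjusted p = 0.000796) over Eed. Those knockouts averaged 13.9, 9.31 and 12.8 CPM, above the wild type, so these folds do not show a fall of Ehmt2 below the wild type. Counts over a whole gene do not see a small deletion, so these levels do not show which embryos lost the proteins.

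The 13 libraries held 1311863 to 3028267 reads. Wild type embryo 8 had the fewest reads and yet a read in 19951 autosomal genes, against 13750 to 14609 in the other 6 wild type libraries. Its median correlation with its own group was 0.846, against 0.949 to 0.962 for the others. The epiblast markers Fgf5 (382 to 499 CPM in the knockout, 289 to 574 in the wild type) and Dnmt3b (2135 to 4651 and 2321 to 3555 CPM) were high in every library, while Pou5f1 had few reads over such positions (3.76 to 10.8 and 0 to 1.61 CPM). The groups of Pou5f1 did not overlap, but its reads were too few for a test against the wild type. In Dnmt1, Rnf2 and Eed it averaged 9.19, 4.42 and 8.68 CPM, so the higher level was not particular to G9a-Glp. Otx2 stood at 43.3 to 98.7 and 16.0 to 54.8 CPM and was not called, and Utf1 rose, as given below. Tdgf1, also an epiblast marker, was lower in the knockout (37.2 to 393 and 159 to 1125 CPM), with overlap. Its log2 fold was -1.63 (adjusted p = 0.0270 by edgeR). The call was lost without knockout embryo 1, 2, 5 or 7 or wild type embryo 6 (0.0503 to 0.0635). Of the ExE markers, Cdx2 was at 0 in every wild type library and at most 0.611 CPM in the knockout, and Elf5 reached 1.75 and 3.81 CPM. Tfap2c reached 3.50 CPM in the knockout and averaged 4.74 ± 6.39 in the wild type, the highest being embryo 8, and Eomes, a gene of the ExE and of the streak, was read in every library (25.7 to 125 and 23.8 to 199 CPM). Visceral endoderm markers varied from embryo to embryo, with Afp at 1.16 to 74.1 CPM in the knockout and 0 to 268 in the wild type, the highest being embryo 8. Of the decidual genes, Prl8a2 was at 0 in all 13 libraries, while Dcn was read in every library (5.50 to 26.7 and 1.98 to 12.2 CPM).

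Genes were called at an adjusted p under 0.05 over all autosomal genes tested. Of 9251 genes, 1828 rose and 1392 fell against the wild type, that is 34.8% called (19.8% higher and 15.0% lower), and 14.6% had groups that did not overlap. At an unadjusted p under 0.05 the share was 45.2%. These p-values measure the spread between these embryos. Direct tests of the G9a-Glp epiblast against each other knockout called 2.17% of 11771 genes over Dnmt1 (1.01% higher and 1.16% lower), 16.2% over Rnf2 (6.53% higher and 9.7% lower) and 7.97% over Eed (2.48% higher and 5.49% lower). The Dnmt1 group had only 3 libraries. Utf1, a chromatin-bound factor of pluripotent cells, went from 77.8 ± 39.5 to 713 ± 100.0 CPM (SD, n = 7 and 6) and averaged 278, 479 and 534 CPM in Dnmt1, Rnf2 and Eed. Bax, a p53 target that promotes apoptosis, went from 135 ± 56.5 to 491 ± 61.2 CPM and averaged 460.2, 375 and 424 CPM in the same 3 knockouts.

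Some genes set the G9a-Glp epiblast apart from every other epiblast group of the cross. In all, 26 genes (0.281% of the 9251 tested) were higher and 19 (0.205%) lower than in the wild type and also than in each of Dnmt1, Rnf2 and Eed. These 45 genes were selected on these values after they were seen, so they are given as a description. The 26 higher genes lay at 22 loci, with genes within 100 kb joined. In 25 of them no knockout library overlapped a wild type library, their median fold over the wild type was 10, and 14 averaged under 5 CPM in the wild type. The 19 lower genes had a median fold of 2.67, and 10 of them showed no overlap. Knockout embryos 1, 2, 3, 4 and 5 each stood above every wild type library at 26 of the 26 higher genes, and embryo 7 at 25. At the 19 lower genes, embryo 2 lay below every wild type library at 11, and the other 5 embryos at 14 to 16. All 6 libraries were used to choose these genes, so the counts do not show how strongly any 1 embryo was affected. Of the 26, 15 carry provisional names (starting with Gm, LOC or Platr, or ending in Rik), as do 9.23% of the genes tested. In the ExE of G9a-Glp embryos, 19 of the 26 could be tested against wild type ExE, and 13 rose and 0 fell, where 8.53% of all genes tested in the ExE rose. Of the 19 lower genes, 13 could be tested in the ExE, and 2 fell there, where 6.24% of all genes fell. The number of higher genes was 15 without knockout embryo 1 and 17 without embryo 5. All 26 stayed past the threshold over the wild type whichever library was left out.

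**Figure D1:**
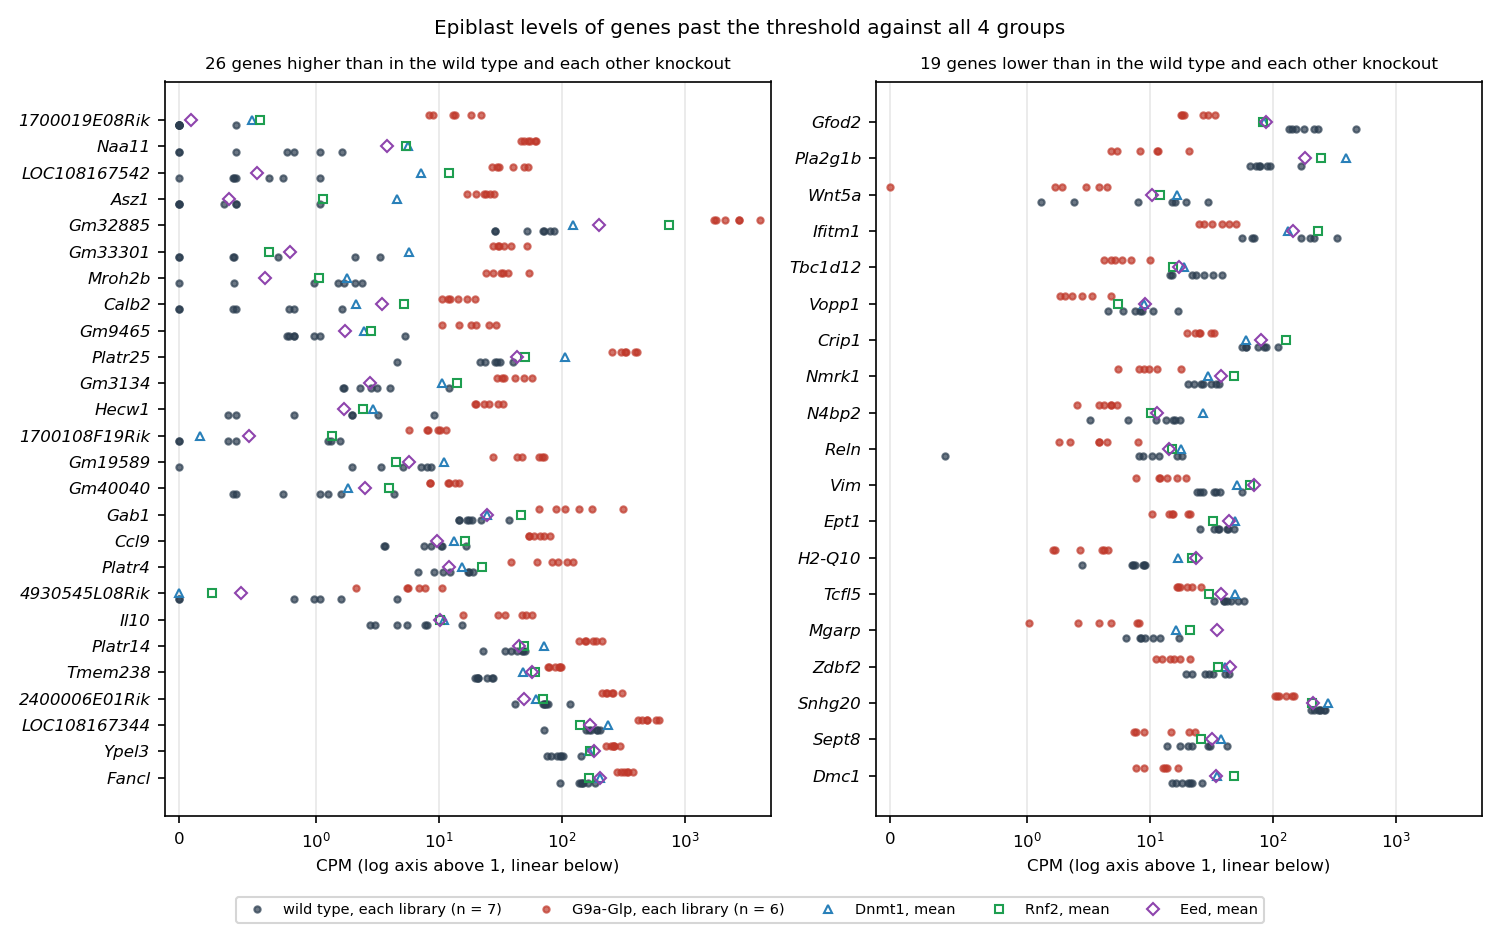
CPM (linear below 1, log scale above) of the 26 genes higher and the 19 genes lower in the G9a-Glp epiblast than in the wild type and in each other knockout; red and dark points are single G9a-Glp and wild type libraries, open symbols are the means of the other knockouts. Among the higher genes the red points all lie beyond the dark ones in 25 of 26, while 10 of the 19 lower genes show no overlap.

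The promoter windows below show the start regions of 3 genes that were near silent in the wild type epiblast (Asz1, Naa11 and Mroh2b) and of 3 genes of noncanonically imprinted loci (Slc38a4, Gm32885 and Gab1). Each runs from 250 bases before to 50 after an annotated start, 5′ to 3′ on the gene's strand, from RefSeq (GRCm38.p6, the assembly of mm10). Capitals mark CpG dinucleotides, the sites of DNA methylation.
Asz1, chr6:18109012-18109311, minus strand: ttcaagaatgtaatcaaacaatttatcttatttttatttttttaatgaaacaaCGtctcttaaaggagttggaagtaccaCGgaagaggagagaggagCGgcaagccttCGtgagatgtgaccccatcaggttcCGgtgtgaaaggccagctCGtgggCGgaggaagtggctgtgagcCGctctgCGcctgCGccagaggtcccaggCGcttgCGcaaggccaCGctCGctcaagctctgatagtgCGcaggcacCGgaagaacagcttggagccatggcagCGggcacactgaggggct
Naa11, chr5:97392281-97392580, minus strand: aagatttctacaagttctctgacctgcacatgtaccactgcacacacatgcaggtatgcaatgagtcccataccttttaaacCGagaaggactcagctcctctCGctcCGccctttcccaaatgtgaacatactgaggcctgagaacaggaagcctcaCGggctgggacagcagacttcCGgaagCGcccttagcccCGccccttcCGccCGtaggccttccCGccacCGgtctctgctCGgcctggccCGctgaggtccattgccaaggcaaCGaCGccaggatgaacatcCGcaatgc
Mroh2b, chr15:4898487-4898786, plus strand: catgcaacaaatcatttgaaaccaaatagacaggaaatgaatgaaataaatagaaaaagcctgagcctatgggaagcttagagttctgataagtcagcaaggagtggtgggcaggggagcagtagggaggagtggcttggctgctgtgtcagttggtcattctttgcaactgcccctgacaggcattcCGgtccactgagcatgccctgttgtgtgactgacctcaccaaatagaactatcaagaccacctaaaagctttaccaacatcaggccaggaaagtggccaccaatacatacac
Slc38a4, chr15:97055907-97056206, minus strand: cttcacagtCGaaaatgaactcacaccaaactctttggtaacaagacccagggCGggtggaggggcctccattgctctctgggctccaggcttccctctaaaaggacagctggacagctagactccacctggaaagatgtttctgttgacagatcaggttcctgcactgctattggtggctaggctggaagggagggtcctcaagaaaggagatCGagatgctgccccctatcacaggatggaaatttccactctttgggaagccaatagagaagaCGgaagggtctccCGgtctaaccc
Gm32885, chr15:97167195-97167494, minus strand: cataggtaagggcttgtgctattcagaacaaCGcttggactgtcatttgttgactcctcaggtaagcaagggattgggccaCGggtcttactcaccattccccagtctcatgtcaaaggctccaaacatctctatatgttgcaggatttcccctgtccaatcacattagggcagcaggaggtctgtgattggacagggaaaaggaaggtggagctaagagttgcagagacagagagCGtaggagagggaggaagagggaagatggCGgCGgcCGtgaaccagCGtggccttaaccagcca
Gab1, chr8:80880470-80880769, minus strand: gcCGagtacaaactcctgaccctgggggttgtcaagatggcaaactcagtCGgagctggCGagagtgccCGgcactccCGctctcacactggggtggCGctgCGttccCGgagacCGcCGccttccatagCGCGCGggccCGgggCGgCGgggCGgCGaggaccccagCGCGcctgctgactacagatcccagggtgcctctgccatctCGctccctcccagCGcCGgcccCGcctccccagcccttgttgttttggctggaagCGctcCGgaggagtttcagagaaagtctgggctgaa
These windows differed widely in CpG content. They held 17 (Asz1), 16 (Naa11), 1 (Mroh2b), 5 (Slc38a4), 7 (Gm32885) and 26 (Gab1) CpGs, where the 32851 RefSeq windows of 300 bases had a median of 7 and quartiles of 3 and 20. The letters TCCCGC, the core that E2F6 recognises, occurred on either strand in the windows of Naa11 and Gab1 and in 20% of all windows. The E-box CACGTG, read by MAX dimers, occurred in none of the 6 windows and in 7.15% of all windows, and the motifs do not overlap each other. Only 17 of the 26 higher genes had a window in the table, so the group was not compared with other genes for base composition.

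Naa11, Asz1, Mroh2b and 1700019E08Rik were near silent in the wild type. Naa11 (chr5:97382209-97392330), the testis form of an N-terminal acetyltransferase subunit, stood at 46.8, 53.7 and 61.7 CPM in the knockout and at 0, 0.791 and 1.65 CPM in the wild type. The groups lay far apart, with a log2 fold of 5.97 ± 0.33 (adjusted p = 4.8e-09), and the mean level was 5.59, 5.44 and 3.83 CPM in Dnmt1, Rnf2 and Eed. Asz1 (chr6:18050964-18109061), a protein of the germ granules that make piRNAs, stood at 17.1, 23.7 and 28.2 CPM against 0, 0.330 and 1.09 CPM, a log2 fold of 5.75 ± 0.42 (adjusted p = 8.31e-08). It averaged 4.54, 1.16 and 0.364 CPM in Dnmt1, Rnf2 and Eed, and 231 CPM in the G9a-Glp ExE. Every knockout epiblast thus exceeded every wild type epiblast in both genes. Mroh2b, a HEAT-repeat gene, stood at 24.4, 32.6 and 54.6 CPM against 0, 1.52 and 2.37 CPM, with no overlap, and averaged 1.79, 1.07 and 0.631 CPM in the other knockouts. The transcript 1700019E08Rik had 203 reads over the 6 knockout libraries and 1 read over the 7 wild type libraries, a ratio scaled to depth of 236 (95% interval 41.8 to 9347), which covers counting error only.

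The reads of these genes came from both parents. Asz1 had a maternal share of 63.4% ± 15.0 (SD, n = 6) in the knockout, Naa11 57.5% ± 12.6 and Mroh2b 72.0% ± 13.9, while their wild type libraries had too few reads for a share. A transcript of the same set, 1700108F19Rik, which went from 0.706 ± 0.664 to 8.89 ± 2.04 CPM, had a maternal share of 18.9% ± 8.92. Strain and parent are joined in this cross, so a share away from even cannot be put down to the parent.

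Calb2, Hecw1, Ccl9, Il10, Platr25 and Platr14 are further members of the 26. Calb2, a calcium-binding protein of neurons, stood at 10.7, 13.3 and 19.5 CPM against 0, 0.422 and 1.65 CPM, with no overlap. Hecw1, a ubiquitin ligase, went from 2.57 ± 3.08 to 25.4 ± 5.44 CPM, with embryo 8 highest in the wild type at 9.15. Ccl9, a chemokine, stood at 53.8, 63.0 and 79.8 CPM against 3.56, 8.59 and 16.6 CPM, a log2 fold of 2.79 ± 0.29 (adjusted p = 2.48e-06). No read of Ccl9 was assigned to the mother in the knockout, and its mean maternal share was 3.33% in the wild type. In the reciprocal wild type cross, where CAST is the mother, its pooled maternal share was 98.9% (94 reads). Its reads thus came almost all from the CAST copy in either cross. Il10, a cytokine, stood at 15.9, 40.6 and 57.1 CPM against 2.77, 5.48 and 15.5 CPM, so its groups nearly met. Platr25 (chr13:62696953-62724217), one of the noncoding transcripts named for pluripotent cells, stood at 257, 327 and 409 CPM against 4.57, 28.7 and 40.3 CPM, a log2 fold of 3.58 ± 0.29 (adjusted p = 2.42e-07). LOC108167344 overlaps Platr25, and reads in the shared stretch cannot be told apart. Platr14, of the same kind, went from 40.7 ± 9.74 to 170.5 ± 26.9 CPM.

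Fancl and Ypel3 had the smallest folds of the set. Fancl, a ubiquitin ligase of the Fanconi anaemia pathway, went from 146 ± 26.9 to 327 ± 34.2 CPM, a fold of 2.11, and Ypel3 from 98.2 ± 21.4 to 260.4 ± 21.9. Tmem238, a membrane protein, went from 23.0 ± 3.21 to 89.0 ± 9.23 CPM and averaged 48.1, 60.5 and 57.6 CPM in Dnmt1, Rnf2 and Eed, while its lowest G9a-Glp library stood at 77.0 CPM. The G9a-Glp level of Tmem238 exceeded those of the 3 knockouts by log2 folds of 0.94, 0.51 and 0.67.

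Gfod2 and Pla2g1b led the lower genes. Gfod2 (chr8:105714046-105758665), an oxidoreductase-like protein, stood at 18.1, 22.9 and 34.1 CPM in the knockout and at 135, 180.4 and 477 CPM in the wild type, the highest being embryo 8. The groups did not overlap (log2 fold -3.24 ± 0.28, adjusted p = 3.75e-07), and the other knockouts lay between, at 84.6, 83.4 and 87.9 CPM. The wild type mean of Gfod2 was 221 CPM with embryo 8 and 178 without. Pla2g1b, a secreted phospholipase, stood at 4.89, 10 and 20.7 CPM against 65.7, 78.9 and 170.0 CPM, a log2 fold of -3.23 ± 0.33 (adjusted p = 2.19e-06). By mean it was higher in the other knockouts, at 394, 248 and 182 CPM, than in the wild type, so the contrast with them was the larger one.

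Ifitm1 was the only gene of the primitive streak list among the 19 lower genes. Ifitm1, an interferon-induced membrane protein of the early streak, stood at 25.2, 35.5 and 50.0 CPM against 55.8, 168 and 329 CPM, with no overlap (log2 fold -2.18 ± 0.38, adjusted p = 0.000291). Wnt5a, a ligand of streak and mesenchyme, went from 13.2 ± 10.1 to 2.51 ± 1.64 CPM, with overlap. Vim, an intermediate filament of mesenchymal cells, stood at 7.70, 13.1 and 19.5 CPM against 24.4, 33.5 and 56.4 CPM, with no overlap, and averaged 51.2, 65.6 and 69.8 CPM in Dnmt1, Rnf2 and Eed. Crip1, a LIM protein, went from 76.6 ± 19.3 to 26.6 ± 4.99 CPM and Tcfl5, a germline transcription factor, from 44.7 ± 8.21 to 19.9 ± 3.75. Snhg20, a host of small nucleolar RNA, went from 237 ± 21.9 to 124 ± 18.1 CPM. Reln, a secreted matrix protein, was past the threshold with all libraries (10.7 ± 5.92 to 4.06 ± 2.21 CPM, adjusted p = 0.0361) and not without knockout embryo 1, 2, 3, 4 or 7 or wild type embryo 3, 6 or 7, with adjusted p-values from 0.0531 to 0.0807. The other 18 lower genes kept their calls over the wild type whichever library was left out.

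Genes with noncanonical imprints mostly rose. Of the 7 listed, 6 were tested, 5 rose and 0 fell, with a median log2 fold of 1.58. Over all genes tested the median was 0.01, and 19.8% rose and 15.0% fell. Over Dnmt1, 2 of the 6 were higher and 0 lower, over Rnf2 4 and 1, and over Eed 5 and 1, the lower gene being Sfmbt2 both times. Gab1 and Platr4 are among the 26 genes. The study itself was about such imprints, so the list is no independent evidence of a direction.

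At Slc38a4 (chr15:96994823-97055956), an amino acid transporter, the silent maternal copy was read in every knockout epiblast. Its maternal share was 14.6%, 33.0% and 37.2% (lowest, median and highest) in the knockout and 0.274%, 0.735% and 6.33% in the wild type. The groups did not overlap, and the lowest knockout value was that of embryo 2 and the highest wild type value that of embryo 8. The ratio of maternal to paternal reads changed by a log2 of 4.79 ± 0.38 (adjusted p = 5.8e-08). The maternal copy went from 2.48 ± 4.02 to 76.7 ± 22.8 CPM and the paternal copy from 119 ± 36.1 to 170.3 ± 10.4. Total Slc38a4 stood at 209, 252 and 263 CPM against 74.0, 119 and 181 CPM, again with no overlap (log2 fold 0.96 ± 0.17, adjusted p = 0.000415). In the reciprocal cross, where CAST is the mother, the maternal share of the wild type was 4.35% of the pooled reads, so the low maternal share held for either strain as mother. The pooled maternal share was 29.7% in Dnmt1, 4.06% in Rnf2 and 18.7% in Eed epiblasts, and these differences were not tested. In the ExE it was 0.508% in the wild type and 32.4% in the G9a-Glp knockout.

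Gm32885 (chr15:97157117-97167278), a noncoding transcript upstream of Slc38a4, showed a still larger rise. It stood at 1723, 2422 and 4042 CPM in the knockout and at 28.7, 69.8 and 85.5 CPM in the wild type, a log2 fold of 5.35 ± 0.31 (adjusted p = 6.21e-09). The paternal copy went from 55.2 ± 21.8 to 1779 ± 446 CPM and the maternal one from 4.36 ± 2.45 to 742 ± 437. Its maternal share was 7.35% ± 2.46 (SD, n = 7) in the wild type and 27.5% ± 8.06 (n = 6) in the knockout, with an adjusted p of 7.41e-05 by edgeR and of 0.140 by limma on log2 ratios. Wild type ExE held Gm32885 at 2392 CPM with a pooled maternal share of 3.11%, and G9a-Glp ExE at 2951 CPM with 41.7%. The Dnmt1, Rnf2 and Eed epiblasts averaged 122, 743 and 199.9 CPM, with pooled maternal shares of 6.36%, 3.68% and 3.27%. Slc38a2 (337 CPM in the knockout and 312 in the wild type) and Amigo2 (6.77 and 6.77 CPM), looked at as neighbours of the locus, were not called in level (adjusted p = 0.940 and 0.924) or in allelic ratio.

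At the Jade1 locus, 3 noncoding transcripts rose beside a Jade1 gene that did not pass the threshold. Platr4 (chr3:41487681-41493199) stood at 38.5, 87.9 and 124 CPM against 6.72, 12.2 and 19 CPM, with no overlap (log2 fold 2.59 ± 0.30, adjusted p = 5.83e-06). Gm40040 (chr3:41474907-41484004) stood at 8.55, 12.0 and 14.7 CPM against 0.396, 1.09 and 4.29 CPM. The transcript 2400006E01Rik (chr3:41500931-41528474) stood at 211, 244 and 307 CPM against 41.9, 73.3 and 117 CPM (log2 fold 1.65 ± 0.19, adjusted p = 6.72e-06). Every knockout library thus lay above every wild type library at all 3. Jade1 itself (chr3:41555734-41616864), a subunit of a histone acetyltransferase complex, stood at 44.2 ± 23.6 CPM against 31.0 ± 4.84 (log2 fold 0.44 ± 0.28, adjusted p = 0.231).

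The parental copies of these transcripts were read as well. Platr4 had a maternal share of 33.1%, 46.6% and 52.6% in the knockout against 11.9%, 26.9% and 33.3% in the wild type, so the groups just met (adjusted p = 0.0258). Its maternal copy went from 3.31 ± 1.55 to 39.8 ± 20.3 CPM and its paternal copy from 9.93 ± 3.87 to 45.4 ± 11.6. The pooled maternal share of Platr4 was 47.3% in the G9a-Glp epiblasts and 24.9% in the wild type. It was 45.1%, 45.8% and 44.5% in Dnmt1, Rnf2 and Eed, so the higher share was not particular to G9a-Glp. The allelic call at Platr4 was lost without knockout embryo 1, 3 or 5 or wild type embryo 1 or 3, with adjusted p-values from 0.0589 to 0.0814. 2400006E01Rik remained mostly paternal, at 18.6% ± 4.67 maternal in the knockout and 11.6% ± 3.54 in the wild type (adjusted p = 0.0603, and 0.0273 without knockout embryo 3 or 0.0473 without wild type embryo 4). Jade1 was read from both copies in both groups, at 47.4% ± 3.72 and 47.7% ± 8.90 maternal.

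Gab1 (chr8:80764431-80880519), an adaptor of growth factor receptors, rose without a call in allelic ratio. It stood at 65.4, 121 and 316 CPM against 14.5, 17.8 and 37.4 CPM, with no overlap (log2 fold 2.83 ± 0.32, adjusted p = 5.96e-06). The maternal copy went from 9.71 ± 4.31 to 88.5 ± 58.0 CPM and the paternal one from 10.5 ± 3.94 to 59.7 ± 36.7, and the maternal share was 59.3% ± 10.1 against 47.6% ± 6.13 (adjusted p = 0.287). Wild type ExE read Gab1 mostly from the father, with 6.36% maternal reads, and the G9a-Glp ExE had 56.0%. Smoc1, a secreted matrix protein, went from 4.97 ± 4.33 to 18.4 ± 4.27 CPM (log2 fold 1.84 ± 0.42, adjusted p = 0.00258). Sfmbt2, a Polycomb-related protein of the trophoblast, went from 4.97 ± 3.41 to 12.3 ± 6.78 CPM (adjusted p = 0.0398) and lost the call without knockout embryo 1, 2, 3 or 5 or wild type embryo 1, 2, 3, 4, 6 or 7, with adjusted p-values from 0.0517 to 0.114. Its neighbour Gm13261 went from 2.44 ± 4.40 to 14.6 ± 4.70 CPM (adjusted p = 0.00379), with embryo 8 highest in the wild type at 12.2.

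No other gene tested within 300 kb of these loci rose. Beside Jade1, D3Ertd751e was lower by a log2 fold of -1.01 (adjusted p = 0.000200) and Sclt1 was not called. Beside Smoc1, Cox16 was lower by a log2 fold of -0.90 (adjusted p = 0.000526), as was the readthrough transcript that overlaps it, and Srsf5 was not called. Beside Sfmbt2, Kin was lower by a log2 fold of -0.73 (adjusted p = 0.000377) and Gm31496 by -2.06 (adjusted p = 0.00371), while Atp5c1 and Itih5 were not called. Smarca5, Gm31223 and Usp38 beside Gab1 were not called, and none of these neighbours with an allelic test was called in it.

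**Figure D2:**
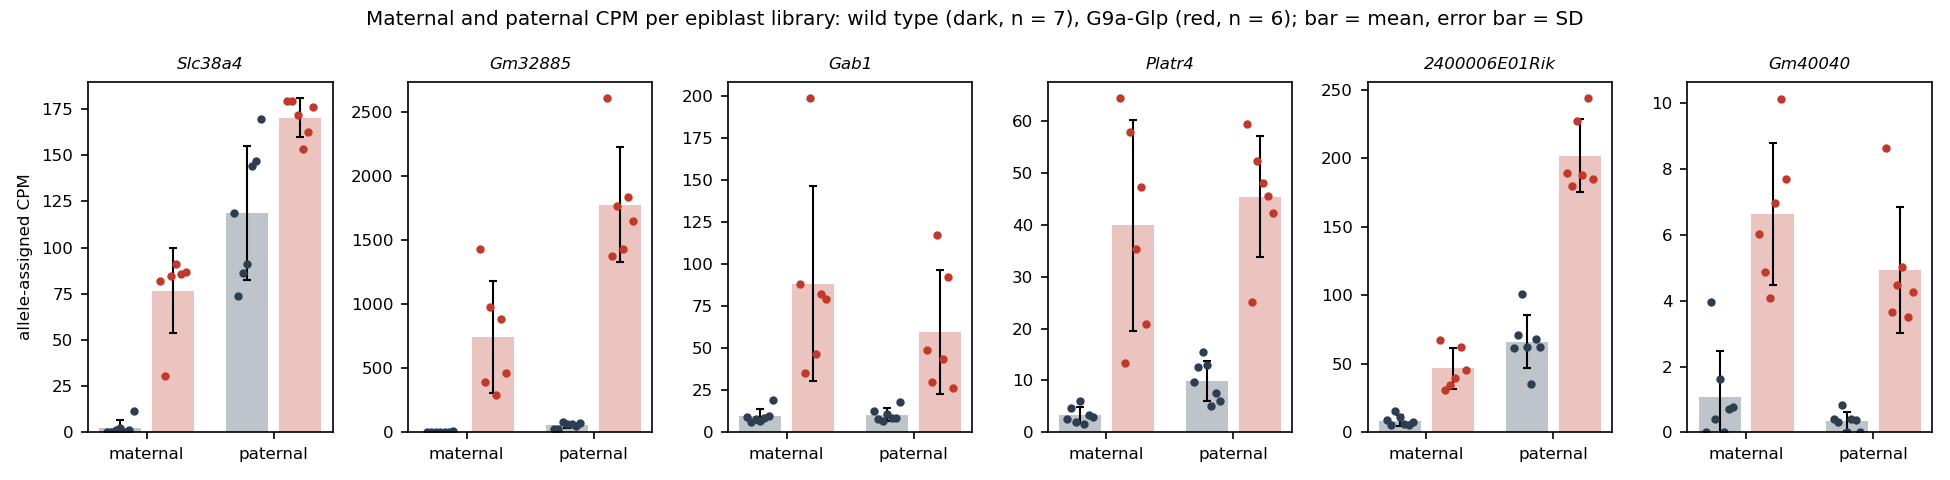
Maternal and paternal CPM at genes of 3 noncanonically imprinted loci, 1 point per library, with bars for the mean and error bars for the SD (wild type n = 7, G9a-Glp n = 6); each panel has its own linear axis from 0. The maternal copy of Slc38a4 lies between 0.330 and 11.4 CPM in the wild type and between 30.5 and 90.9 CPM in the knockout.

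Outside these loci, few imprinted genes passed the allelic test. Of 41 listed genes with such a test, Slc38a4, Platr4 and Peg3 passed, all toward the mother, where 1.79% of the 8692 genes tested were called (0.656% toward the mother and 1.14% toward the father) and 11.0% had an unadjusted p under 0.05. H19, expressed from the mother, had a maternal share of 90.6% ± 3.23 in the knockout and 82.0% ± 7.26 in the wild type (adjusted p = 0.233). Meg3, also maternal, stood at 99.5% ± 0.860 and 99.5% ± 0.545. Among paternal genes, Mest stood at 2.96% ± 3.15 and 3.12% ± 3.05, Impact at 3.86% ± 2.52 and 3.48% ± 1.38, and Mcts2 at 1.55% ± 2.24 and 1.10% ± 1.19, which differed by less than their spread. In Dnmt1 epiblasts Mest, Impact and Mcts2 averaged 46.3%, 47.6% and 53.8% maternal.

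Peg3, a paternally expressed zinc finger gene, passed with a wide spread. Its maternal share was 1.80%, 2.58% and 31.0% in the knockout, with embryo 4 alone at the highest value and the next at 5.69%, and 0%, 0.996% and 2.26% in the wild type. The adjusted p was 0.0191 with all libraries, and 0.0526 to 0.0560 without wild type embryo 6 or 7. Zdbf2, another paternal gene, had 10.4% ± 13 against 1.99% ± 2.28 (adjusted p = 0.291). Over 16 imprinted genes with 1 copy at or below 10% of pooled reads in the wild type of the reciprocal cross, counted where a library had at least 20 reads, the median share of that copy ran from 1.55% to 4.76% in the knockout libraries and from 0% to 4.23% in the wild type, where embryo 8 was the highest and the next stood at 1.33%. Not all of the 16 met that limit in this cross, where Sfmbt2, paternal in the reciprocal one, had a mean maternal share of 58.2% ± 24.8 in the wild type. The difference between the groups was not tested.

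**Figure D3:**
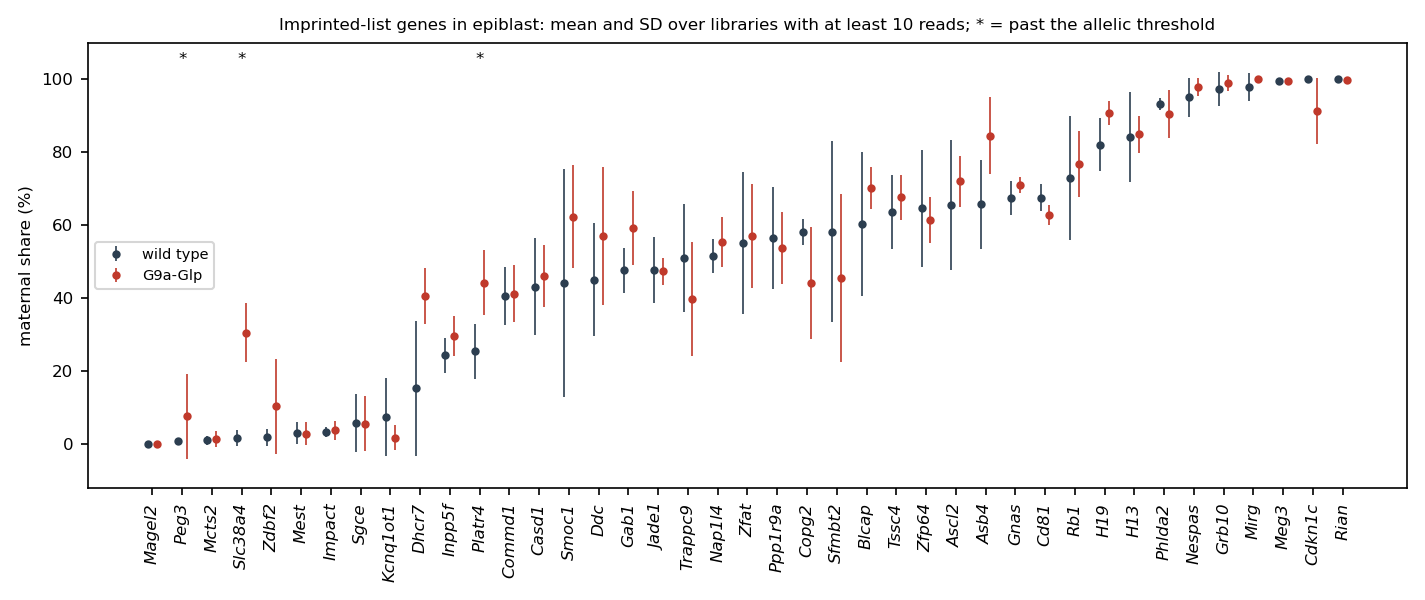
Maternal share of allele-assigned reads (mean and SD over libraries with at least 10 reads) at 41 imprinted genes in wild type (dark) and G9a-Glp (red) epiblast, with a star where the allelic test was passed. Slc38a4 stands at 30.6% in the knockout against 1.74%, and genes near either end, such as Mest and Meg3, lie on top of each other.

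Of 37 canonically imprinted genes tested, 7 rose and 8 fell, with a median log2 fold of 0.08, and these counts lie near the shares over all genes (19.8% higher and 15.0% lower). Rian, a maternal noncoding RNA of the Dlk1-Dio3 cluster, went from 8.82 ± 2.50 to 42.1 ± 14.8 CPM, with no overlap, and Meg3 of the same cluster from 50.6 ± 18.2 to 91.3 ± 34.0. Meg3 lost its call without knockout embryo 3 (adjusted p = 0.0503). Impact fell from 138 ± 11.2 to 61.0 ± 9.78 CPM with no overlap (adjusted p = 3.23e-06), and Phlda2, a placental growth regulator, from 101 ± 69.1 to 18.1 ± 13.6. Zdbf2 fell from 31.2 ± 9.07 to 15.5 ± 3.61 CPM and was among the 19 genes lower than in every other group, at 40.5, 35.9 and 45.1 CPM in Dnmt1, Rnf2 and Eed, where Impact averaged 154, 59.7 and 65.9 CPM. Calls at 9 of the 15 held whichever library was left out.

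Germline genes rose more often than they fell. Of 52 listed, 18 were tested, 8 rose and 3 fell, with a median log2 fold of 0.72. Over all genes tested against the wild type, 19.8% rose and 15.0% fell, so the number that fell lay near that share. Sohlh2, a transcription factor of germ cells, stood at 21.3, 40.1 and 62.9 CPM against 0, 1.98 and 9.15 CPM, a log2 fold of 4.12 ± 0.52 (adjusted p = 1.56e-05). Sycp2, of the synaptonemal complex, went from 0.711 ± 0.640 to 10.2 ± 3.59 CPM, and Ddx4, the Vasa helicase, from 8.73 ± 3.98 to 33.9 ± 8.15. All 3 were also read in the other knockouts, Sohlh2 at 25.6, 35.7 and 5.34 CPM and Ddx4 at 26.4, 143 and 29.6 CPM in Dnmt1, Rnf2 and Eed. The genes that fell, also meiotic, were Sycp3 (74.8 ± 30.4 to 29.5 ± 4.64 CPM), Syce2 (232 ± 43.0 to 122 ± 17.2) and Dmc1 (20 ± 3.78 to 12.3 ± 3.42). Compared directly with Rnf2, 20 of 31 germline genes tested were lower in the G9a-Glp epiblast and 2 were higher, beside 9.7% and 6.53% over all genes. Over Dnmt1 1 was higher and 9 were lower, and over Eed 5 and 7. Asz1 was among the higher ones each time.

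Interferon-response genes mostly rose over the wild type. Of 14 tested, 8 rose and 1 fell, beside 19.8% and 15.0% over all genes. The median log2 fold was 1.39, and all 9 calls held whichever library was left out. Irf1, a transcription factor of the response, stood at 25.5, 45.1 and 65.4 CPM against 0, 3.79 and 9.25 CPM, with no overlap. Bst2, a restriction factor against enveloped viruses, stood at 44.9, 77.8 and 112 CPM against 0, 5.34 and 25.4 CPM, also with no overlap. Psmb8, an immunoproteasome subunit, went from 8.94 ± 6.49 to 63.7 ± 25.0 CPM, while B2m, the light chain of class I molecules, fell from 64.3 ± 19.8 to 35.2 ± 9.10. Irf1 averaged 52.6, 38.4 and 43.7 CPM in Dnmt1, Rnf2 and Eed. Direct tests of 25 interferon genes called 0 higher and 0 lower over Dnmt1, 1 and 10 over Rnf2, and 1 and 4 over Eed. The GTPase Tgtp1, outside the list, had 310 reads in the knockout and 2 in the wild type, a ratio of 179.8 (95% interval 49.4 to 1491), and averaged 20.5 CPM against 4.43, 4.70 and 3.65 CPM in Dnmt1, Rnf2 and Eed.

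Of 25 p53 targets tested, 10 rose and 2 fell, beside 19.8% and 15.0% over all genes, with a median log2 fold of 0.54. Beside Bax, Ei24, a membrane protein of the endoplasmic reticulum, went from 20.9 ± 4.42 to 50.8 ± 10.6 CPM and Zmat3, an RNA-binding target of p53, from 15.2 ± 2.45 to 30.5 ± 5.35, both with no overlap. Rps27l, a ribosomal protein-like target, fell from 7471 ± 2493 to 3536 ± 683 CPM. Calls at 7 of the 12 held whichever library was left out. Against each of Dnmt1, Rnf2 and Eed, 0 of 29 targets were higher, and 0, 8 and 4 were lower.

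Genes of the primitive streak, where mesoderm and endoderm begin, lay mostly on the lower side. Of 17 tested, 1 rose and 7 fell, beside 19.8% and 15.0% over all genes, and the median log2 fold was -1.08. Calls at 4 of the 8 held whichever library was left out, and those at T, Mesp1, Foxa2 and Lefty2 did not. Beside Ifitm1, Bmp7, a growth factor, went from 18.1 ± 16.4 to 2.36 ± 2.03 CPM (adjusted p = 0.00517), and Fst, an inhibitor of activin, from 91.9 ± 71.8 to 33.8 ± 19.8 (adjusted p = 0.0235, and 0.0898 without knockout embryos 2 and 7). Brachyury (T), which marks the streak, stood at 1.71, 35.8 and 67.8 CPM against 5.61, 174 and 313 CPM, with wide overlap. Its call (adjusted p = 0.0317) was lost without knockout embryo 1, 3, 5 or 7 or wild type embryo 1 or 6, with adjusted p-values from 0.0520 to 0.0666. Foxa2, a factor of the endoderm, had an adjusted p of 0.0377 and lost its call without knockout embryo 1, 4, 5 or 7 or wild type embryo 6 or 8 (0.0696 to 0.0869). In these bulk samples, fewer streak cells and less RNA per cell cannot be told apart, and the exact stage of each embryo was not given. T averaged 146, 43.6 and 51.0 CPM in Dnmt1, Rnf2 and Eed.

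Of 26 epiblast identity genes tested, 4 rose and 4 fell, near the shares over all genes (19.8% higher and 15.0% lower). Their median log2 fold was 0.12. Trh, a neuropeptide gene, rose from 149.9 ± 40.2 to 627 ± 203 CPM, as did Utf1. Fgf4, a growth factor of pluripotent cells, fell from 7.33 ± 2.22 to 2.01 ± 1.06 CPM, with no overlap, and Sall4, a zinc finger factor, from 539 ± 60.5 to 388 ± 43.2. Of 14 naive pluripotency genes 4 rose and 1 fell, beside the same shares (median log2 fold 0.04). Dppa4, a chromatin factor, went from 6.63 ± 3.41 to 59.7 ± 32.6 CPM and Gdf3, a TGF-beta ligand, from 2.13 ± 1.49 to 16.4 ± 6.86, both with no overlap. In Rnf2 epiblasts Dppa4 and Gdf3 averaged 205 and 168 CPM.

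Other chromatin regulators were measured beside the targets. Of 22 genes of H3K9 methylation and its readers, 1 rose and 5 fell, beside 19.8% and 15.0% over all genes. Of the 6 calls, 3 held whichever library was left out. Cbx1, the heterochromatin protein HP1-beta, fell from 374 ± 58.3 to 203 ± 39.2 CPM with no overlap (log2 fold -0.96 ± 0.13, adjusted p = 4.34e-05). Kdm3a, an H3K9 demethylase, fell from 23.1 ± 4.71 to 12.3 ± 2.53 CPM and Setdb1, another H3K9 methyltransferase, from 54.2 ± 14.1 to 36.0 ± 9.04. Of 23 Polycomb genes 4 rose and 6 fell, beside 19.8% and 15.0% over all genes, and 5 of the 10 calls held whichever library was left out. Max, which pairs with MYC and MGA, rose from 8.14 ± 2.59 to 38.6 ± 11.8 CPM and Pcgf2 from 5.68 ± 2.11 to 16.4 ± 3.48, while the repressor E2f6 fell from 33.5 ± 18.3 to 16.3 ± 1.61. Of 14 DNA methylation genes 4 rose and 2 fell, beside the same shares over all genes, with 4 of the 6 calls held in that way. Dnmt1, the maintenance methyltransferase, rose from 33.0 ± 5.64 to 56.3 ± 12.8 CPM. In Dnmt1, Rnf2 and Eed epiblasts, Cbx1 averaged 227, 256 and 200.1 CPM and Max 25.3, 29.9 and 30.7 CPM.

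Some markers of other tissues passed the threshold, as did 34.8% of all genes tested (19.8% higher and 15.0% lower). The counts of the 2 lists below were not tested against these shares. Of 15 visceral endoderm genes 4 rose and 1 fell (median log2 fold -0.09), and the list's summed level was 3278 to 4187 CPM in the knockout and 3457 to 4364 CPM in the wild type. The visceral endoderm markers Afp, Ttr, Amn and Rbp4 made up little of this sum, so it does not follow them. Their medians were 24.2 CPM in the knockout and 0.422 in the wild type (Afp), 11.8 and 0.330 (Ttr), 9.14 and 3.63 (Amn), and 2.30 and 5.48 (Rbp4). These markers overlapped between the groups and were not called. Knockout embryos 2, 3 and 5 stood highest of the knockouts for Afp, Ttr and Amn. Apoa1, a lipoprotein of that tissue, stood at 0.428, 14.9 and 81.8 CPM against 0, 0.422 and 10.7 CPM, and its call (adjusted p = 0.0335) was lost without knockout embryo 2 or 5 or wild type embryo 1, 2, 3 or 7 (0.0508 to 0.124). Of 13 ExE genes 5 rose and 1 fell (median 0.08), with a summed level of 361 to 478 CPM against 254 to 631 CPM. Krt18, a keratin, rose from 13.9 ± 5.63 to 34.2 ± 7.29 CPM and Cldn4, a tight junction protein, from 3.83 ± 2.92 to 16.2 ± 7.71, while Elf5, Cdx2, Tfap2c and Bmp4 were at 3.50 CPM or below in every knockout library and Eomes at 25.7 to 125. Of these calls, 1 of the 5 for visceral endoderm and 4 of the 6 for ExE held whichever library was left out. The part of residual tissue in these levels was not tested.

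**Figure D4:**
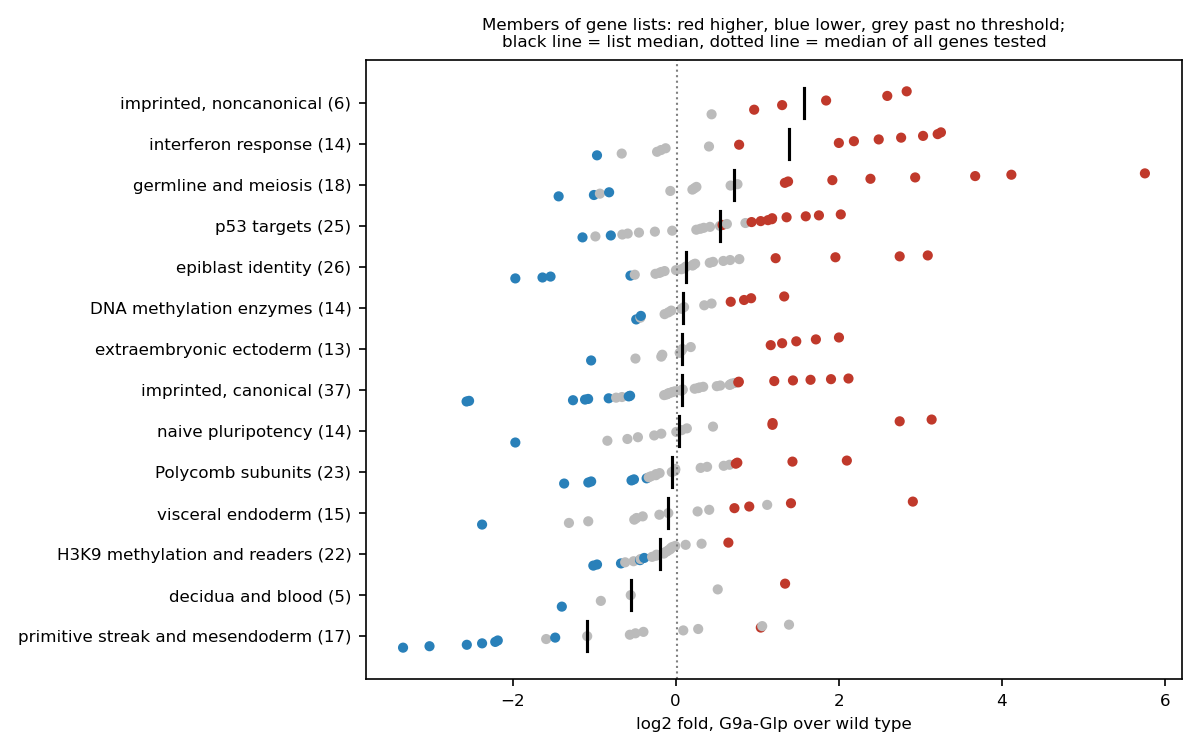
Log2 fold of G9a-Glp over wild type epiblast for the tested members of 14 gene lists, red where higher, blue where lower and grey where not past the threshold, with the list median as a black line and the median of all genes as a dotted line. The medians run from -1.08 for the primitive streak to 1.58 for noncanonically imprinted genes.

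Outside the lists, the largest folds with no overlap fell on genes that were near 0 in the wild type. C8b, a complement component made in liver, had 157 reads in the knockout (8.13, 9.17 and 17.5 CPM) and 0 in all 7 wild type libraries, so it was at least 60.7-fold higher, with 3 reads over the wild type group as the floor. Nlrp4c, an oocyte gene of the NLR family, stood at 22.4, 32.6 and 45.3 CPM against 0, 0.422 and 1.61 CPM (log2 fold 5.77 ± 0.43, adjusted p = 8.68e-08). Pdha2, the testis form of a pyruvate dehydrogenase subunit, stood at 6.84, 21.8 and 38.8 CPM against 0, 0 and 3.05 CPM, and averaged 19.3 CPM in Dnmt1. Git1, a GTPase-activating scaffold, had 140 reads against 2, a ratio of 81.2 (95% interval 22.1 to 677), and 4930591A17Rik 245 against 3, a ratio of 94.7 (95% interval 32.0 to 463). None of these 5 was past the threshold against all 3 other knockouts. Of the largest falls, Sp8, a transcription factor of limb and brain, went from 22.4 ± 10.3 to 3.16 ± 1.71 CPM and Gm2694, a noncoding transcript, from 88.8 ± 18.1 to 18.4 ± 4.27. A230087F16Rik averaged 26.0 CPM in the wild type with embryo 8 and 14.0 without, against 2.70 in the knockout.

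The parental shares were also taken at genes called higher that stood under 1 CPM in every wild type library. There were 8 with at least 20 knockout reads, of which Tgtp1 and Gm42074 overlap and hold nearly the same reads (310 and 308). Their median maternal share was 57.3%, beside 54.3% over the 11681 autosomal genes with as many reads. Of the 8, 0 lay at or above 90% or at or below 10%, where 4.13% of the 11681 genes did, so 8 genes are too few to tell the set from the rest. Without knockout embryo 1, which held 109 of its 245 reads, 4930591A17Rik went from 76.7% to 92.6% maternal and lay in the outer range. The pooled share ran from 27.6% at Gm42074 to 81.3% at 1700029P11Rik (95% Wilson interval 74.3% to 86.8%, counting error only). Without wild type embryo 8, 13 genes met the rule, and 3 of them lay in those outer ranges.

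Over all genes, the allelic ratio changed at 156 of 8692, 57 toward the mother (the 3 imprinted genes among them) and 99 toward the father, and 35 and 60 of these showed no overlap, where 1.79% of the genes tested had groups that did not overlap. Without knockout embryo 1, 36 changed toward the mother. Of the 156, 90 were also called in expression, a share of 57.7% beside 33.3% of the genes in both tests. In 83 of the 156 the wild type mean lay between 30% and 70%. Gja1, the gap junction protein connexin 43, had a maternal share of 43.0%, 50.6% and 61.2% in the knockout and 13.6%, 22.4% and 25.5% in the wild type (log2 change of the ratio 1.95 ± 0.16, adjusted p = 5.86e-08). Its paternal copy went from 377 to 72.7 CPM and its maternal copy from 94.9 to 74.3, so the CAST copy carried most of the fall. Sap18, of a histone deacetylase complex, had maternal shares of 52.8% ± 4.40 against 25.2% ± 5.85, with paternal reads going from 73.8 to 26.3 CPM and maternal ones from 25.2 to 29.7. Mospd3, with 40.4% ± 3.59 against 14.1% ± 8.71, gained on both copies, from 4.58 to 42.9 CPM on the maternal and from 25.9 to 63.5 on the paternal one.

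Toward the father, LOC108167344 had a maternal share of 17.6%, 25.0% and 27.0% in the knockout against 41.9%, 47.5% and 73.4% (adjusted p = 4.51e-06), with the paternal copy going from 85.6 to 384 CPM and the maternal one from 79.2 to 121. The highest of its wild type values was that of embryo 8. Platr25, which overlaps LOC108167344, was also called toward the father, at 7.63% ± 1.72 against 19.3% ± 5.67 maternal (adjusted p = 0.00132). The paternal copy of Platr25 went from 20.4 to 310 CPM. Reads in the shared stretch cannot be told apart, so the shift cannot be put down to LOC108167344 alone. Dnaaf5, a factor for ciliary dynein assembly, had 60.6% ± 7.02 against 89.3% ± 5.53, with paternal reads going from 3.63 to 31.5 CPM. Zfp691, a zinc finger gene, had 19.6% ± 17.4 against 63.5% ± 17.4, with maternal reads going from 20.3 to 2.71 CPM. Every knockout embryo had a CAST father, so parent and strain cannot be told apart for these changes. Calls lay within 1 Mb of another call for 41 of the 156, in 20 runs, and 22 overlapped another called gene, with which they can share reads. The spacing of all genes tested was not set beside these counts, so they do not show clustering. The longest run held 3 genes, Slc38a4, Gm32885 and Asb8.

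**Figure D5:**
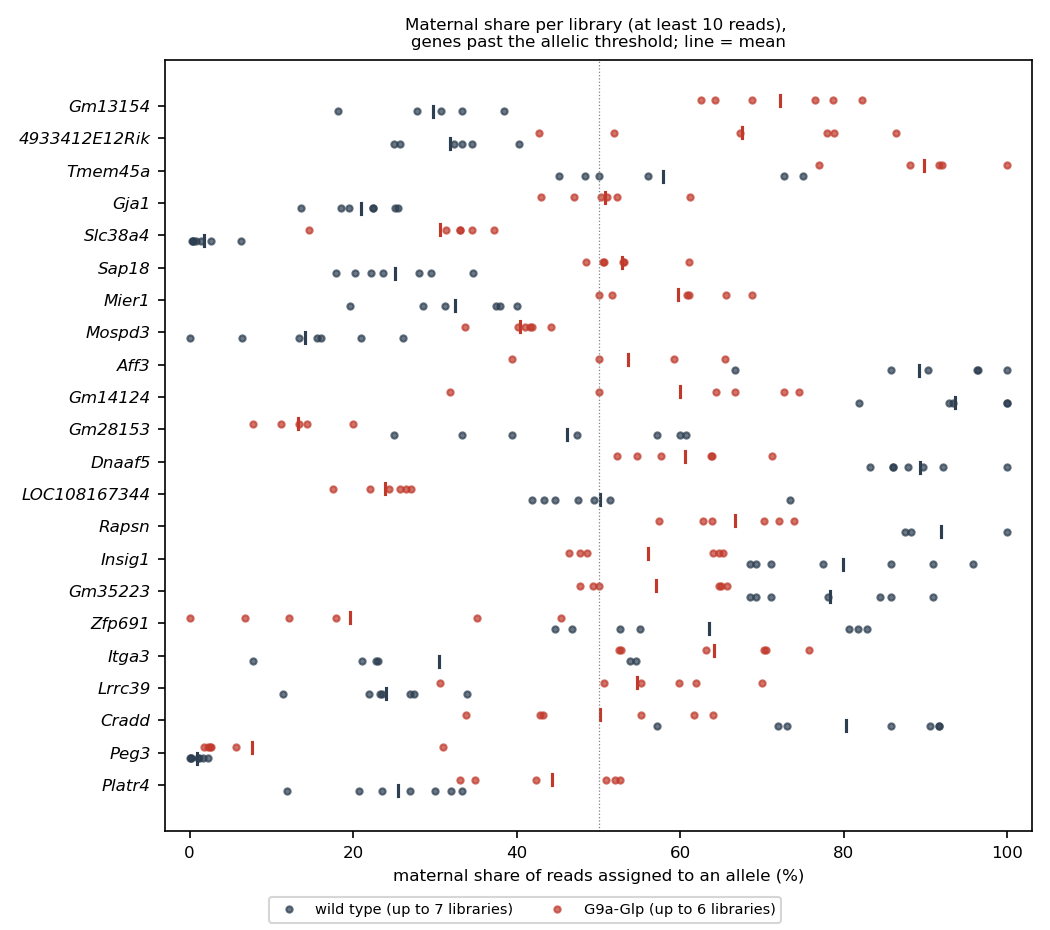
Maternal share (%) per library with at least 10 reads at the named genes past the allelic threshold, red for G9a-Glp and dark for wild type, with short lines at the means. Slc38a4, Gja1, Sap18 and Mospd3 stand higher in the knockout, LOC108167344 and Dnaaf5 lower, and Peg3 has 1 knockout library at 31.0%.

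Summed over whole chromosomes, the maternal share differed little. By exact permutation tests over the 13 libraries, two-sided and adjusted over 19 autosomes, 9 chromosomes passed the threshold, 6 with a lower and 3 with a higher maternal share in the knockout, and the smallest p was 0.000583, the smallest these permutations can give. Chromosome 15 moved the most, from 58.0% ± 1.36 to 55.7% ± 0.474, a difference of -2.29 points. Wild type embryo 8 was the highest there at 60.9%, and without it the largest fall on any autosome was -1.80 points. Slc38a4 and Gm32885 lie on chromosome 15, and their own shares moved toward the mother. Gm32885 nevertheless stood at 27.5% maternal in the knockout, below the share of the chromosome. Its paternal copy went from 55.2 to 1779 CPM and its maternal copy from 4.36 to 742, so it added mostly paternal reads to the sum. How much of the chromosome's fall these reads made up was not tested. Chromosome 6 moved the most upward, from 55.7% ± 0.507 to 56.6% ± 0.465. With the median over genes in place of the summed reads, 0 chromosomes passed (smallest adjusted p = 0.111).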

How the data were processed

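RNA-seq libraries from single epiblasts were analysed from 1 deposited table of 30546 genes. Per the submitters' processing notes, the tools were STAR 2.5.0 and HTSeq and the build was mm10, and strandedness of the counting is not given in the sources used here. The authors deposited for each library the count of reads over strain-specific positions per gene, an allelic ratio and an allelic score. Per the notes that came with the deposited table, the allelic ratio runs from all reads BDF1 to all reads CAST, and the allelic score is a signed −log10 of a binomial p-value. Maternal and paternal reads were recovered from the deposited count and ratio. For values with at least 10 reads, the score was used to choose among the counts that the rounded ratio allows. The chosen counts gave back the score within 0.002 for 99.993% of these values. Since the score chose them, this match is no independent check. Values at the score's limit, which hold 7.61% of reads, were left aside there and rest on the ratio alone.

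Expression was tested on autosomal counts with edgeR 4.0.16 (quasi-likelihood, TMM, low counts filtered, Benjamini-Hochberg) in R 4.3.3, with wild type and G9a-Glp libraries for the main contrast, and all knockout epiblasts for the direct ones. Allelic ratios were tested with edgeR on maternal and paternal counts with a term per library. A share needs at least 10 reads. The tests were tried on simulated counts with a preset spread, over 9410 genes for expression and 8692 for the allelic ratio. In each, 200 well-read genes were changed. Of these changes, 100% of the 4-fold, 61% of the 2-fold and 93.5% of the 20-point allelic ones were recovered. Genes with few reads or with shares near either end were not among those changed, and no outlying library was simulated. Replicate numbers did not pair the samples. Alternatives were DESeq2 1.42.0, limma 3.58.1, RLE factors, no filter, sex as a covariate, a replicate block and left-out libraries.

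Members and gene lists were chosen with earlier results of these data known. Named genes were the targets, the non-overlapping calls with the largest folds averaging at least 2 CPM (15 higher, 10 lower), list members and defining markers, and for the allelic ratio the 8 largest non-overlapping calls in each direction with imprinted genes past the threshold. The 45 genes apart from all groups, their promoters, and neighbours of loci were added after their values were seen. Lists that gave few tests are not described above: of 5 decidua and blood genes tested 1 rose and 1 fell, and of 2 two-cell embryo genes 0 were called. Hba-a1 was not analysed here.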

Additional observations from a re-analysis of the deposited data

Results flagged for a closer look

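A library was set apart where it lay far from the rest of its group relative to the group's whole range, which chance gives in about 1 of 20 groups. This was met in 26 of 172 groups of values (15.1%), and 17 of the 26 were wild type embryo 8. That library had the fewest reads (1311863), the most autosomal genes with a read (19951), the highest autosomal maternal share (58.6%) and the lowest median correlation with its group (0.846).

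In CPM, wild type embryo 8 was the highest of its group for Gfod2 (477), A230087F16Rik (98.3), Adcyap1r1, a neuropeptide receptor (20.6), LOC108168883 (525), A730063M14Rik (134), Gm3134 (12.2), Hecw1 (9.15), Gab1 (37.4), Vim (56.4) and Gm13261 (12.2), and the lowest for LOC108167344 (71.7). Its maternal share was the highest of the group for LOC108167344 (73.4%) and Slc38a4 (6.33%).

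Other wild type libraries set apart were embryo 2 for Il10 (15.5 CPM) and Ypel3 (142 CPM), and embryo 4 for Pla2g1b (170.0 CPM, the highest) and H2-Q10, a class I gene (2.83 CPM, the lowest). Among the knockouts, embryo 2 had the lowest level (209 CPM) and the lowest maternal share (14.6%) of Slc38a4. Knockout embryo 4 had the highest Sp8 (6.58 CPM) and the highest maternal share of Peg3 (31.0%), and embryo 7 the highest maternal share of Sap18 (61.1%).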

How the results depend on the processing

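Calls over the wild type numbered 1748 higher and 1517 lower with RLE factors, 2091 and 1757 with DESeq2, 1964 and 1314 without a filter, and 1486 to 2188 and 1168 to 1624 with 1 library left out. The median log2 fold of all genes moved by -0.29 with DESeq2 and by -0.25 without a filter, and the share of calls that were higher was 50.2% without G9a-Glp embryo 1, against 56.8%. Without G9a-Glp embryos 2 and 7, the calls were 64 higher and 69 lower over Dnmt1 and 454 and 730 over Rnf2, and the median log2 fold of the canonical imprinted list was 0.24. With 1 library left out, 71 to 138 genes were higher and 95 to 164 lower than in Dnmt1, 15 to 29 were higher than in all other groups, and 36 to 76 changed allelic ratio toward the mother. The count higher than in Dnmt1 moved the most without G9a-Glp embryo 1 (71), 5 (76) or 7 (79). Genes near silent in the wild type numbered 3 under a limit of 0.5 CPM and 13 without wild type embryo 8, an alternative chosen after seeing the data. The cause of these shifts was not tested. With the replicate block, 1743 genes were higher and 1321 lower, and 52 and 82 changed allelic ratio. Lefty2 turned to a log2 fold of 0.30 (adjusted p = 0.854) there. Also with the block, Foxa2, T, Bmp7, Fst, Reln and Sfmbt2 in level and Platr4 in allelic ratio were not past the threshold (adjusted p from 0.0774 to 0.618). Without G9a-Glp embryos 2 and 7, Fst, Reln, T, Meg3, Apoa1 and Foxa2 lost their calls (0.0540 to 0.146), as did Apoa1 (0.0846) and Foxa2 (0.0533) with DESeq2 and Foxa2 with sex as a covariate (0.0742). Same-numbered embryos had correlations of deviations from -0.115 to 0.172, and 0 of 5 pairs matched best with their own number. With the median over genes, 0 chromosomes passed.

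Of the single-gene values recomputed under alternatives, 3019 for expression kept their direction and side of the threshold, 264 (44 genes) lost the call, and for the allelic ratio 500 kept and 65 (13 genes) lost it. Only reads over strain-specific positions were counted, so genes with few such reads, Ehmt2 and Pou5f1 among them, were not tested against the wild type. Small groups and the absence of control injections limit what the contrast with the wild type shows.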
